A study of Mus musculus with 6 samples.

Results

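The family of miR-130 and miR-301 is a group of microRNAs (miRNAs) of shared descent, and 4 of its names were followed here in exosomes, the small vesicles that cells release, from mouse bone marrow-derived macrophages. The names were mmu-miR-130a-3p, mmu-miR-130b-3p, mmu-miR-301a-3p and mmu-miR-130b-5p, 4 of 707 miRNA names in the deposited table of counts. They were selected on their opposite shifts between the genotypes in these same counts, so their levels, their make-up and the miR-130b arm ratio are given as descriptions, without a test. All 4 passed the filter on low counts that left 254 names to test.

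The study compared exosomes from the supernatant of macrophages of Roquin-1 san:san mice with those of wild-type (WT) mice, in 3 libraries per genotype, all on the C57BL/6 strain. The san label stands for the sanroque allele of the gene for Roquin-1, a protein that binds stem-loops of messenger RNAs and speeds their decay. Age, sex, culture conditions and any stimulus of the macrophages are not in the labels used here. Nor do the labels say whether replicates came from separate mice, so the spread between them may be technical.

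A miRNA is cut from a hairpin as a duplex of a 5p and a 3p arm, of which usually only the guide arm is kept and the passenger arm is degraded. The guide finds its target messenger RNAs mainly through its seed, bases 2 to 8 from the 5′ end, so miRNAs with the same seed can bind the same sites. In this family the 3p arms are the usual guides. In human cells miR-130 is known to repress PPARG, the master regulator of fat cell formation, and miR-130a to repress the homeobox genes GAX and HOXA5 in endothelial cells.

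The mature sequences of the 4 members are shown first, because the family is defined by the seed (bases 2 to 8, in capitals). They were taken from RefSeq on build GRCm38.p6, where all 4 names matched.
miR-130a-3p: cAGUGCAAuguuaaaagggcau
miR-130b-3p: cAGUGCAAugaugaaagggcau
miR-301a-3p: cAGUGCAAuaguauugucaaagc
miR-130b-5p: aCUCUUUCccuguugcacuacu

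The 3p members share their seed and their first 9 bases. Positions are counted from 1 at the 5′ end. miR-130b-3p differs from miR-130a-3p at 2 of 22 positions, U11A and A13G, and miR-301a-3p differs from it at 10 of 22, beginning with G10A. Among 1679 mature mouse miRNAs in the RefSeq table, 7 had this seed at bases 2 to 8 (0.417%), and 3 of those were in the counts table, the 3p members shown here. miR-301b-3p, in the counts table as well, had no mature sequence in the RefSeq table and so could not be among the 7. It was put with the family by its name, and the sequence of the miR-301b hairpin contains the same seed. miR-130b-5p is the opposite arm of the miR-130b hairpin and has another seed. How many mismatches the authors allowed when matching reads to names is not given in the sources used here, so reads of the near-identical miR-130a-3p and miR-130b-3p could be shared in part.

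The members come from 3 places in the genome (GRCm38.p6). The miR-130a hairpin lies at chr2:84741115-84741178 on the minus strand and overlaps no other gene of the GENCODE annotation. The miR-301a hairpin lies at chr11:87113004-87113089 on the plus strand, in an intron of Ska2, which encodes a protein of the spindle and kinetochore complex. The miR-130b hairpin lies at chr16:17124061-17124142 on the minus strand, in an intron of 2610318N02Rik. It is 257 bases from the miR-301b hairpin, which also lies in an intron of that gene. The miR-130b hairpin is printed here with its 5p arm (bases 13 to 34) and its 3p arm (bases 51 to 72) in capitals, since the genotypes differed in the balance of these arms.
Mir130b: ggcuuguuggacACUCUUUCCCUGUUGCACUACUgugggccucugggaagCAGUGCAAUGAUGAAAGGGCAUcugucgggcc

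The libraries differed in depth with the genotype. The san:san libraries held 126098 to 185901 counts and the WT libraries 12447 to 28884, so that every san:san library was deeper. Levels are given as CPM, counts scaled to a common library size, after TMM scaling, which sets libraries to a common level by the bulk of their miRNAs. A single count was worth 6.31 to 10.2 CPM in san:san and 27.8 to 69.5 CPM in WT. In edgeR's quasi-likelihood test 64.2% of the 254 miRNAs had an adjusted p under 0.05, 34.6% higher (88) and 29.5% lower (75) in san:san. The split moved with the scaling, to 49 higher and 101 lower with total counts and to 64 and 82 with DESeq2. The median log2 fold change of all tested miRNAs was 0.30 with TMM and -0.29 with total counts, and changes are therefore also given relative to that median. The direction of each of the 4 members was the same under all scalings tried.

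miRNAs known from other cell types also differed in their share of counts between the genotypes. The 4 erythroid markers (miR-486a-5p, miR-451a, miR-144-3p and miR-144-5p) held 10.3% to 11.9% of counts in san:san and 2.68% to 4.59% in WT, and 3 of 4 were higher by edgeR's adjusted p. The lymphocyte miRNA miR-150-5p held 1.38% to 1.92% in san:san and 0.409% to 0.492% in WT, and was higher. The 2 endothelial arms of miR-126a held 3.37% to 6.96% in san:san and 1.82% to 3.69% in WT, ranges that overlapped, and both were higher by the test. The 6 macrophage and myeloid markers held 9.20% to 10.9% in san:san and 4.82% to 5.62% in WT, with 4 of 5 tested higher and none at 0 in either genotype. For the 5 stromal markers the range was 0.741% to 0.833% in san:san and 0.844% to 1.32% in WT, with 1 higher and 1 lower. For the liver miRNA miR-122-5p it was 0.420% to 0.580% in san:san and 0.501% to 0.699% in WT, and it did not pass. Over all tested miRNAs 34.6% were higher and 29.5% lower. Of 5 epithelial markers, 4 were at 0 in all WT libraries and none in san:san, with at most 0.0138% of counts in any library, and of 3 muscle markers miR-133a-3p was at 0 in WT, with at most 0.0312%. The part of these cell types, and of depth, in the values of the family was not tested. In such bulk samples, a change in the cells that released the vesicles and a change in the miRNA per vesicle cannot be told apart.

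miR-130a-3p was by far the family's main miRNA in WT exosomes and was 18.2-fold lower in san:san exosomes. It had 364, 300 and 139 counts in the san:san libraries and 591, 1483 and 747 counts in the much shallower WT libraries. That made 2295, 2257 and 1424 CPM in san:san, against 41098, 41156 and 27056 CPM in WT. All san:san libraries were far below all WT libraries, and in each genotype replicate 3 was the lowest. The means were 1992 ± 492 CPM in san:san and 36437 ± 8124 CPM in WT (SD, n = 3 each), a log2 fold change of -4.19 ± 0.27 (SE), or -4.48 relative to the median of all tested miRNAs. By mean CPM it stood at place 60 of 707 names in san:san and at place 3 in WT. Of the 254 tested miRNAs, 27 had a lower log2 fold change.

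miR-130b-3p, with the same seed, was lower too, but by 2.83-fold. It had 299, 210 and 152 counts in san:san and 86, 161 and 111 in WT, which made 1885, 1580 and 1557 CPM in san:san and 5980, 4468 and 4020 CPM in WT. The genotypes did not overlap. The means were 1674 ± 183 CPM in san:san and 4823 ± 1027 CPM in WT, a log2 fold change of -1.50 ± 0.21, or -1.80 relative to the median. The place by mean CPM was 76 in san:san and 35 in WT. Of the 254 tested miRNAs, 63 had a lower log2 fold change.

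miR-301a-3p, which shares the seed as well, differed in the other direction and was 8.72-fold higher in san:san. It had 390, 471 and 531 counts in san:san and only 9, 9 and 15 in WT. These made 2459, 3543 and 5439 CPM in san:san, against 626, 250 and 543 CPM in WT. Every san:san library was above every WT library, and san:san replicate 3, the lowest of its genotype for miR-130a-3p, was the highest for miR-301a-3p. The means were 3814 ± 1508 CPM in san:san and 473 ± 198 CPM in WT, a log2 fold change of 3.12 ± 0.39, or 2.83 relative to the median. With total counts the log2 fold change was 2.52. Of the 254 tested miRNAs, 2 had a larger positive change. With so few counts in WT, the exact 95% counting interval of the library with 250 CPM ran from 114 to 474 CPM.

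miR-130b-5p, the arm opposite to miR-130b-3p, was 3.60-fold higher in san:san. It had 150, 124 and 98 counts in san:san and 1, 12 and 8 in WT, or 946, 933 and 1004 CPM in san:san and 69.5, 333 and 290 CPM in WT. The san:san libraries lay close together and above all WT libraries, whereas the lowest WT value rests on 1 count, with an exact 95% counting interval of 1.76 to 387 CPM. The means were 961 ± 37.8 CPM in san:san and 231 ± 141 CPM in WT, a log2 fold change of 1.85 ± 0.33, or 1.55 relative to the median. With total counts it was 1.26. Of the 254 tested miRNAs, 25 had a larger positive change with TMM.

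The CPM ranges of the genotypes overlapped for none of the 4 members, 2 being higher and 2 lower in san:san. Among all tested miRNAs 39.8% were higher and 31.1% lower in this sense, and since the members were chosen by this contrast, nothing is read from their count.

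**Figure D1:**
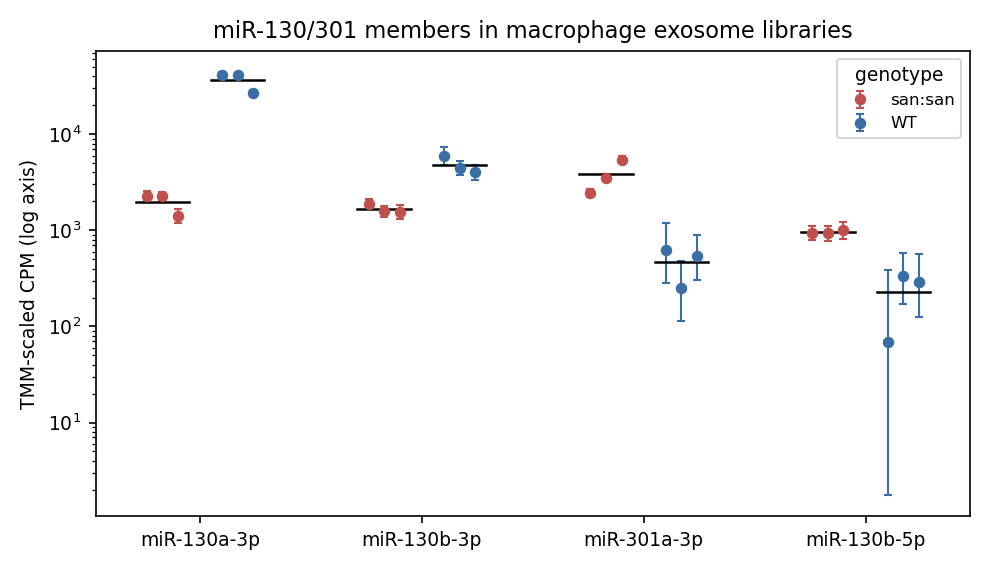
TMM-scaled CPM (log axis) of the 4 members in each library, san:san to the left of WT for each miRNA. Points are libraries with exact 95% Poisson counting intervals and black lines are means of 3 libraries. miR-130a-3p and miR-130b-3p are lower in san:san, miR-301a-3p and miR-130b-5p higher, and the longest interval belongs to the WT library with 1 count of miR-130b-5p.

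The order of the members differed between the genotypes. All are 22 or 23 bases long, but how evenly the library preparation takes up miRNAs of different sequence was not measured, so the order is one of counts. In san:san, miR-301a-3p was first, and its 2459 to 5439 CPM did not overlap with miR-130a-3p (1424 to 2295). Within san:san replicate 1 these miRNAs were within counting error of each other (2459 and 2295 CPM). miR-130a-3p and miR-130b-3p (1557 to 1885) could not be ordered beyond their spread, and miR-130b-5p (933 to 1004) lay below both. In WT, miR-130a-3p (27056 to 41156 CPM) came first and miR-130b-3p (4020 to 5980) next. miR-301a-3p (250 to 626) and miR-130b-5p (69.5 to 333) followed, with ranges that overlapped.

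**Figure D2:**
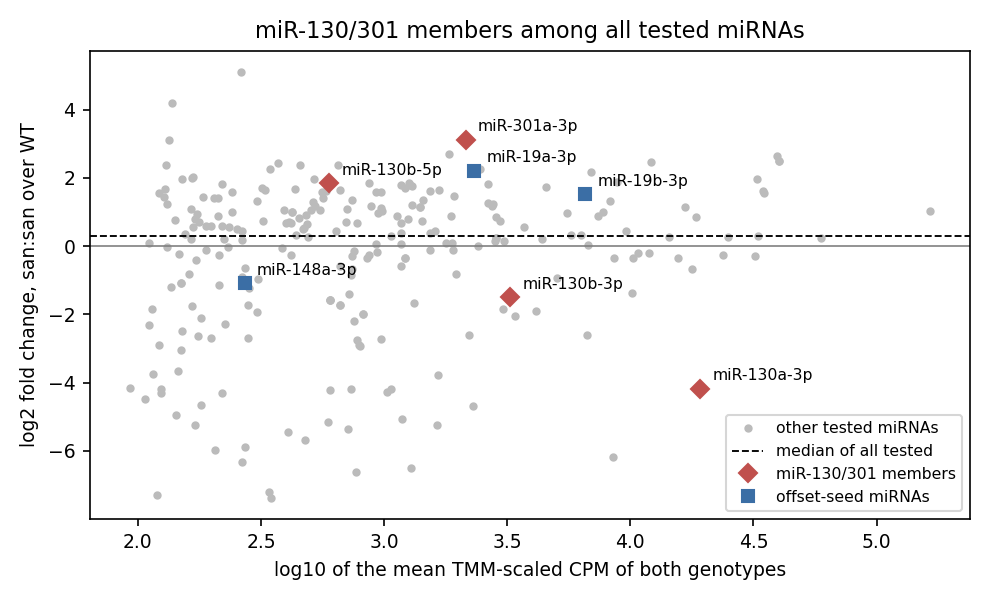
log2 fold change (san:san over WT) against log10 of the mean TMM-scaled CPM for the 254 tested miRNAs. Red diamonds are the 4 members, blue squares the tested miRNAs with an offset seed, and the dashed line is the median of all tested miRNAs (0.30). miR-130a-3p is the most abundant of the marked miRNAs and the lowest of them, at -4.19, while miR-301a-3p is the highest, at 3.12.

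Ratios of counts within a library need no scaling between libraries. For each count of miR-130a-3p there were 1.07, 1.57 and 3.82 counts of miR-301a-3p in the san:san libraries, against 0.0152, 0.00607 and 0.0201 in the WT libraries. miR-301a-3p thus outnumbered miR-130a-3p in every san:san library and was a small fraction of it in every WT library. The mean log2 ratio was 0.89 ± 0.94 in san:san and -6.35 ± 0.90 in WT (SD, n = 3 each), a 151-fold difference. For each count of miR-130a-3p there were 0.821, 0.70 and 1.09 counts of miR-130b-3p in san:san, and 0.146, 0.109 and 0.149 in WT, a 6.45-fold difference in the mean log2 ratio.

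The 3p counts of the family, summed over miR-130a-3p, miR-130b-3p, miR-301a-3p and miR-301b-3p, numbered 1061, 984 and 828 in san:san and 686, 1653 and 873 in WT. They were 0.571%, 0.613% and 0.657% of all counts in san:san, against 5.51%, 5.72% and 4.01% in WT. In TMM-scaled CPM the sum was 7525 ± 902 in san:san and 41733 ± 8806 in WT. Without miR-130a-3p the sum of the other 3 names was 5533 ± 1373 CPM in san:san and 5296 ± 1137 CPM in WT, with ranges that overlapped (4395 to 7057 and 4564 to 6606 CPM). As an unscaled share of all counts the same 3 names held 0.449% ± 0.0880 in san:san (0.375% to 0.546%) and 0.644% ± 0.104 in WT (0.579% to 0.763%), with ranges that did not overlap, so the comparison of the family without miR-130a-3p depends on the scaling.

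Within that sum miR-130a-3p held 34.3%, 30.5% and 16.8% in san:san, against 86.2%, 89.7% and 85.6% in WT. miR-301a-3p held 36.8%, 47.9% and 64.1% in san:san and 1.31%, 0.544% and 1.72% in WT. miR-130b-3p held 28.2%, 21.3% and 18.4% in san:san and 12.5%, 9.74% and 12.7% in WT. The mean shares of miR-130a-3p, miR-301a-3p and miR-130b-3p were 27.2% ± 9.21, 49.6% ± 13.8 and 22.6% ± 5.04 in san:san, and 87.1% ± 2.25, 1.19% ± 0.596 and 11.7% ± 1.67 in WT. miR-130b-3p therefore took a larger share of the family in san:san even though its own level was lower.

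The make-up also varied among replicates of 1 genotype. The exact 95% binomial intervals of the miR-301a-3p share were 33.8% to 39.7%, 44.7% to 51.0% and 60.8% to 67.4% in san:san replicates 1, 2 and 3, with no overlap. For miR-130a-3p they were 31.5% to 37.3%, 27.6% to 33.5% and 14.3% to 19.5%, so san:san replicate 3 stood apart. Without that library the san:san means were 32.4% for miR-130a-3p and 42.3% for miR-301a-3p. In WT the miR-130a-3p intervals were 83.3% to 88.6%, 88.1% to 91.1% and 83.1% to 87.8%, of which those of replicates 2 and 3 did not overlap. All these intervals cover counting error only, so they are narrower than the full error of a library. Whether molecular identifiers were used is not given in the sources used here, and without them reads are not independent molecules.

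**Figure D3:**
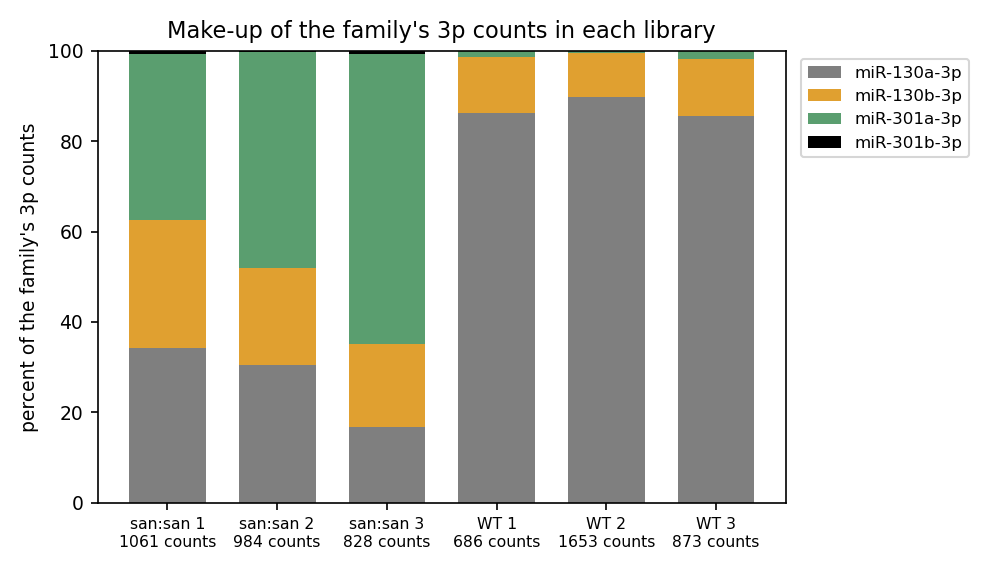
Share of each miRNA in the summed 3p counts of the family (percent, stacked to 100%) in each of the 6 libraries, with the number of counts under each bar. miR-130a-3p fills 85.6% to 89.7% of the WT bars and 16.8% to 34.3% of the san:san bars, where miR-301a-3p fills 36.8% to 64.1%.

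The balance of the arms of the miR-130b hairpin differed between the genotypes. Its 5p arm, usually the passenger, held 33.4%, 37.1% and 39.2% of the hairpin's counts in san:san, against 1.15%, 6.94% and 6.72% in WT. The exact 95% intervals ran from 29.1% to 45.6% over the san:san libraries and from 0.0291% to 12.8% over the WT libraries, and they cover counting error only. Over the summed counts the 5p share was 36.0% in san:san (372 of 5p and 661 of 3p, interval 33.1% to 39.0%) and 5.54% in WT (21 and 358, 3.46% to 8.35%). The mean log2 ratio of 5p to 3p counts was -0.80 ± 0.18 in san:san and -4.66 ± 1.53 in WT. Its difference, 3.86, was 2.97 without WT replicate 1, the library with 1 count of the 5p arm. The 3p arm was still the more frequent arm in all 6 libraries. Reads of the near-identical miR-130a-3p could be shared in part with the miR-130b-3p count. miR-130a-3p averaged 36437 CPM against 4823 of miR-130b-3p in WT, and 1992 against 1674 in san:san. The part of such reads in the arm ratio was not tested.

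For comparison, 49 hairpins reached 20 counts, both arms added up, in each library. The arm ratios of the genotypes did not overlap for 46.9% of them, and in 24.5% the ratio of 5p to 3p was higher in san:san than in WT without overlap. With 0.5 added to each count, miR-130b was at place 5 in the order of the shift towards the 5p arm (log2 3.62), next below miR-125a (3.97) and next above miR-99b (2.75). The other 3 hairpins ahead of it, miR-486a, miR-486b and miR-150, named after their values were seen, had 0 counts of the 3p arm in san:san, so that their shift depends on the added count and the depth. miR-486a and miR-486b had the same summed counts in both arms and are not separate measurements. miR-199a and miR-199b likewise had the same summed 3p counts. Places and percentages of hairpins given here count such names separately. Among the 25 hairpins with at least 10 summed counts of each arm in each genotype, a limit chosen after seeing the data, miR-130b was second, at log2 3.26 from summed counts. By the size of the shift in either direction it stood lower, at place 8 of 49 and place 4 of 25. The larger shifts towards the 3p arm among the 25 were those of miR-23a (-6.01) and miR-25 (-3.71), also named after their values were seen.

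**Figure D4:**
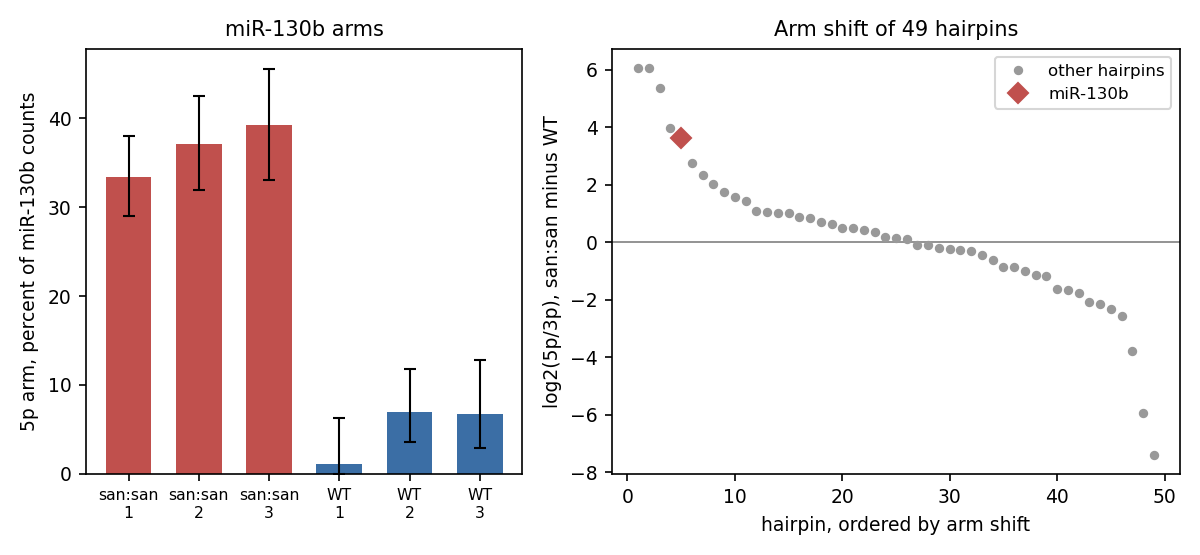
Left, the 5p arm as a percentage of the miR-130b counts in each library, with exact 95% binomial intervals. Right, the difference in mean log2(5p/3p) between san:san and WT for 49 hairpins in order, with miR-130b as a red diamond at 3.62. All san:san bars (33.4% to 39.2%) stand above all WT bars (1.15% to 6.94%).

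The partner arms of the other hairpins were scarce. miR-130a-5p had 0, 2 and 1 counts in san:san and 0, 2 and 0 in WT, which was 0.372% of the hairpin's counts in san:san (exact 95% interval 0.0768% to 1.08%) and 0.0708% in WT (0.00858% to 0.256%). These intervals, from summed counts, overlapped, and they rest on 3 and 2 counts of the 5p arm. Whether the arm balance of miR-130a differed was not tested. With 0.5 added to each count its log2 shift was 2.34, place 7 of the 49 hairpins, and its ratios overlapped between the genotypes. With so few counts of the 5p arm, that shift depends on the added count and the depth. miR-301a-5p had 4, 2 and 4 counts in san:san and 0 in each WT library. Its share was 0.713% of the hairpin's counts in san:san (0.343% to 1.31%), and the 33 WT counts of the hairpin allowed up to 10.6%.

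miR-301b-3p, from the hairpin next to miR-130b, had 8, 3 and 6 counts in san:san and 0 in each WT library, and was too low to test. Over the summed san:san libraries it stood at 43.7 CPM, and a count of 0 over the summed WT libraries allows up to 38.5 CPM (taking 3 counts as the limit). The san:san level was only 1.14-fold above that limit and rests on 17 counts. No fold between the genotypes is therefore given, and whether they differed was not tested. miR-301b-5p had 1 count, in san:san replicate 2.

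miRNAs with an offset seed share part of the family's seed and can bind overlapping sites. miR-148a-3p, miR-148b-3p and miR-152-3p carry the first 6 bases of the seed at bases 3 to 8, and miR-19a-3p and miR-19b-3p, which are known to promote cell growth, carry its last 6 bases at bases 2 to 7. These 6 bases are in capitals in one example of each.
miR-148a-3p: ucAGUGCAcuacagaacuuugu
miR-19a-3p: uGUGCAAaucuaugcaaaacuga

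Of these 5 miRNAs 3 were tested, 2 were higher in san:san, none was lower and 1 did not pass, with a median log2 fold change of 1.53, against 0.30 over all tested miRNAs. Over all 254, 34.6% were higher and 29.5% lower. miR-19a-3p had 444, 499 and 496 counts in san:san and 6, 36 and 25 in WT, and rose by log2 2.21 ± 0.31 (edgeR adjusted p = 2.83e-05). miR-19b-3p had 1240, 1423 and 1054 counts in san:san and 27, 123 and 127 in WT, and rose by log2 1.53 ± 0.27 (edgeR adjusted p = 2.15e-04). For both, all 3 san:san libraries were above all 3 WT libraries in CPM. With total counts both were still called higher, at log2 1.61 for miR-19a-3p and 0.92 for miR-19b-3p.

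miR-148a-3p had 31, 18 and 24 counts in san:san and 1, 21 and 11 in WT, at 192 ± 55.3 CPM in san:san and 350 ± 260 CPM in WT. The ranges overlapped, and its log2 value of -1.08 ± 0.49 did not pass (edgeR adjusted p = 0.0691). It passed as lower with RLE factors (0.0231), total counts (0.00957), TMMwsp factors (0.0406), a minimum count of 5 (0.0360) and DESeq2 (0.0287), and without WT replicate 1 (0.00391) or san:san replicate 3 (0.0411). Over all alternatives its adjusted p ran from 0.00391 to 0.433. miR-148b-3p (37 counts over san:san and 5 over WT) and miR-152-3p (15 and 1) were too low to test.

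The miRNAs whose pattern over the 6 libraries was most like that of a member were found by the root mean square difference of centred log2 CPM. For miR-130a-3p these were miR-193a-5p (0.30), miR-3473b (0.36) and miR-3473e (0.40), against a median of 2.34 over all other tested miRNAs. miR-193a-5p averaged 96.7 ± 50.2 CPM in san:san and 1965 ± 77.7 CPM in WT. miR-3473b and miR-3473e averaged only 32.0 ± 9.95 and 32.1 ± 8.06 CPM in san:san, so their likeness depends in part on the 20 CPM added before the log. Their log2 fold changes were -5.35 and -5.16, against -4.19 for miR-130a-3p. For miR-130b-3p they were let-7c-5p (0.18), miR-877-5p (0.21) and miR-466c-3p (0.24), against a median of 1.24. let-7c-5p averaged 5609 ± 251 CPM in san:san and 14622 ± 1934 CPM in WT. For miR-301a-3p they were miR-1306-5p (0.51), miR-127-3p (0.56) and miR-486b-5p (0.58), against a median of 1.49. miR-1306-5p averaged 3187 ± 695 CPM in san:san and 494 ± 84.0 CPM in WT. Some of these names stand for a tie. miR-466b-3p and miR-466p-3p had the same log2 fold change as miR-466c-3p (-1.57), and miR-486a-5p the same as miR-486b-5p (2.50).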

How the data were processed

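Exosome miRNA libraries of 3 san:san and 3 WT samples were grouped, and numbered, by their titles. The authors deposited whole-number counts per mature miRNA in a table for the series, used here as deposited. The submitters' processing notes name the build mm9. Aligner, trimming and miRNA release were not given in the sources used here. Scaled values that the authors deposited per sample were not used, and the number of columns from other samples was 0.

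In R 4.3.3, edgeR 4.0.16 was used for a quasi-likelihood test of genotype, with no further term, on TMM-scaled libraries with robust dispersions. filterByExpr with a minimum count of 10 kept 254 miRNAs, over which p-values were adjusted by Benjamini-Hochberg. It applies that minimum as a cutoff in CPM, so fewer counts met it in the shallower WT libraries than in san:san. These held 98.2% to 99.3% of each library's counts. The fit was checked on simulated counts. The SE of a log2 fold change is its size over the root of its F statistic. Intervals are exact 95% Poisson or binomial intervals from scipy 1.17.1. Pattern likeness used log2 of CPM plus 20. The members were in this fit, but no p-value is given for them.

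The members, the list of offset seeds, the markers and the rule for named miRNAs were chosen with earlier results of these data known. The rule took the members, names of the same seed, partner arms, the offset list, the 3 nearest patterns of each 3p member and the hairpins next to miR-130b in the arm order. miR-301b-3p was taken by its family name, with the seed found in its hairpin. Alternatives were other scalings, filters, DESeq2 1.42.0, merged identical rows, a replicate block, other pseudocounts and averages, and each library left out.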

Additional observations from a re-analysis of the deposited data

How the results depend on the processing

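With an alternative setting, no member changed direction. The log2 fold changes were -4.75 for miR-130a-3p, -2.08 for miR-130b-3p, 1.26 for miR-130b-5p and 2.52 for miR-301a-3p with total counts, and for miR-130b-3p -1.76 with RLE factors and -1.76 with DESeq2. With each library left out in turn they ran from -4.34 to -4.05 for miR-130a-3p, -1.64 to -1.43 for miR-130b-3p, 1.52 to 2.07 for miR-130b-5p and 2.60 to 3.37 for miR-301a-3p. The miR-130b arm difference ran from 2.97 to 4.31 in the same way. The number of miRNAs called higher was 49 with total counts. Leaving out single libraries, 133 to 175 were called in all, 68 to 90 of them higher and 62 to 85 lower. The offset-seed list had 1 lower member with RLE factors, total counts, TMMwsp factors, a minimum count of 5 and DESeq2, and 0 to 1 with a library left out. The family's 3p share of counts was 1.03% in san:san and 6.68% in WT without the 5 most abundant miRNAs in the total, and 0.752% in san:san over the TMM effective library size. With a library left out it was 0.592% to 0.635% in san:san and 4.76% to 5.62% in WT. The labels do not say that replicate numbers pair samples, and deviations of same-numbered libraries correlated at 0.0955, -0.068 and 0.25 for replicates 1, 2 and 3. Not every library correlated best with its own number, as WT replicate 1 did so with san:san replicate 2 (0.148). In a fit with a replicate block, 161 miRNAs were called, 90 higher and 71 lower, and the members stood at -4.20, -1.51, 1.90 and 3.13 (miR-130a-3p, miR-130b-3p, miR-130b-5p, miR-301a-3p). The WT depth limits the values of miR-130b-5p (21 summed WT counts) and miR-301a-3p (33).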
